A study of Rattus norvegicus with 4 samples.

Results

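Solute carriers are membrane proteins that move amino acids, sugars, metals, ions and nucleotide sugars across the plasma membrane and the membranes of organelles. The loci described here are rows of a long noncoding RNA (lncRNA) table whose gene name, taken from the Ensembl column or otherwise from the AceView name, begins with Slc and a family number. The mitochondrial carriers (names beginning Slc25, 16 loci) and the astrocyte marker Slc1a3 were left out by that rule. Rows of 1 name on 1 chromosome were summed. This gave 63 loci from 92 transcripts, of 17290 loci and 20524 transcripts in all. All 92 names came from AceView, and all belong to protein-coding genes in the RefSeq gene table, where Slc24a6 is now called Slc8b1. Each value is therefore that of a listed noncoding transcript at a carrier gene. Reads of the carrier's own messenger or precursor RNA may be among its counts and cannot be told apart from it.

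Primary astrocytes came from the cerebral cortex of neonatal Wistar rats and were cultured on coverslips above neurons, held apart by paraffin dots, in both groups. In the group given oxygen and glucose deprivation (OGD, labelled ischemic preconditioning, 2 libraries) the co-cultures spent 45 min without glucose in a low-oxygen incubator, followed by 24 h of reoxygenation in normal medium. Astrocytes of the control group (2 libraries) are labelled untreated. Libraries held 2646300 and 2513804 lncRNA counts after OGD and 2607020 and 2631684 in control. Nothing in the labels says whether the 2 libraries of a group came from different cultures, so every test below measures the spread between libraries, which may be technical. With bulk RNA, fewer cells of a type and less RNA per cell cannot be told apart.

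Astrocytes are known for clearing glutamate through Slc1a2 and Slc1a3, exporting lactate through the monocarboxylate carriers of family 16 and taking up cystine through Slc7a11 for glutathione synthesis. The carriers of family 35 bring nucleotide sugars into the Golgi and endoplasmic reticulum, and those of family 39 (the ZIP proteins) bring zinc and other metals into the cytosol. Under low oxygen, transcription factors of the HIF family bind the core ACGTG, and ATF4 and the metal-sensing factor MTF-1 bind elements in promoters of amino acid and zinc transporter genes.

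The stretches just upstream of carrier gene starts are shown because elements of these 3 kinds are known from promoters of carrier genes. They were taken from RefSeq, build GRCr8, which held windows for 50 of the 63 genes, 54 windows in all. Only the 250 bases before each start were read. The starts are those of the coding genes, and where the listed noncoding transcripts start relative to them was not examined. Slc4a1ap encodes kanadaptin, an adaptor protein and not itself a carrier. Slc36a1 encodes a proton-coupled amino acid transporter of lysosomes, Slc39a13 a zinc transporter, and Slc3a2 the heavy chain that carries Slc7a11 and Slc7a5 to the cell surface. The lines give, 5′ to 3′ on the strand of the gene, the window of each with ACGTG on either strand (read as CACGT on the other strand) in capitals. These are chr6:30653594-30653843 on the minus strand for Slc4a1ap, chr10:39824785-39825034 on the plus strand for Slc36a1, chr3:97503045-97503294 on the minus strand for Slc39a13, and chr1:215039671-215039920 on the minus strand for the second of 2 windows of Slc3a2.
Slc4a1ap: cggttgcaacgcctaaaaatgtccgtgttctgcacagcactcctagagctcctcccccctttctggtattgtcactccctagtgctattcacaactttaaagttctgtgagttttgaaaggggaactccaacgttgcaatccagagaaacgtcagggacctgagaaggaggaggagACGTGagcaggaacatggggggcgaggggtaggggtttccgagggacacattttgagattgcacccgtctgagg
Slc36a1: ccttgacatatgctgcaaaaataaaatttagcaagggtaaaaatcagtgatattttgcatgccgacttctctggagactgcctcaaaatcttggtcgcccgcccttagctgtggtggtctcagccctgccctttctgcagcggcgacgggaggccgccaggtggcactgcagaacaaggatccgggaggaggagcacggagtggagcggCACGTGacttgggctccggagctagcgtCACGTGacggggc
Slc39a13: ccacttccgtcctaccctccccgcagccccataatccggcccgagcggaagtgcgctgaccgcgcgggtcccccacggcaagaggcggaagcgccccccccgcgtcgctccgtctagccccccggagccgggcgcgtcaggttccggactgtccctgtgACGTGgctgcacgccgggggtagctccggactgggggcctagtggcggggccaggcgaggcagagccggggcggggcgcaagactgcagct
Slc3a2: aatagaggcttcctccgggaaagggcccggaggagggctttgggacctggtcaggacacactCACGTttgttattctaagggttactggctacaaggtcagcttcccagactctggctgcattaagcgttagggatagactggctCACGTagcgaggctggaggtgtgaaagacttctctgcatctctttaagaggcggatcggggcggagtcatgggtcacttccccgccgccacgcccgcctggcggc

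The palindrome CACGTG, which reads ACGTG on both strands, occurs 2 times in the window of Slc36a1, 41 and 13 bases before the start. The window of Slc4a1ap holds ACGTG 1 time, 74 bases before the start, and that of Slc39a13 1 time, 91 bases before. That of Slc3a2 holds it 2 times, 188 and 105 bases before. Over both strands, 15 of the 50 genes (30%) had ACGTG in a window, against 18.1% of 27457 genes in the table and 18.6% of 19005 protein-coding genes. It was in 6 of 27 genes whose loci had enough counts to be tested and in 9 of 23 whose loci did not. The core TGATGNAA of the ATF4 element was in 3 of 50 (6%, against 3.16% of coding genes), and TGCACNC, a core of the metal response element, in 7 of 50 (14%, against 11.3%). Windows of the carrier genes averaged 58.8% G and C, against 54.2% in coding genes, and ACGTG overlapped TGCACNC at 2 places. These are descriptions of letters, not of binding. Neither window of Slc41a2, the locus with the most counts, held ACGTG in this stretch.

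Carrier loci were a small part of the lncRNA counts. They took 2087 and 2250 counts after OGD, or 0.0789% and 0.0895%, against 1824 and 2253 in control, or 0.07% and 0.0856%. The exact 95% binomial intervals, which cover counting error only, were 0.0755% to 0.0823% and 0.0858% to 0.0933% after OGD, and 0.0668% to 0.0732% and 0.0821% to 0.0892% in control. Family 35 was the most numerous with 8 loci, and family 39 followed with 7. A locus had 1 transcript in 43 cases and more in 20, up to 6 at Slc29a1, which encodes the equilibrative nucleoside transporter that moves adenosine. Of the 92 transcripts, AceView calls 30 unspliced (32.6%), against 54.2% of the 16282 transcripts it names. Unspliced transcripts held 52.3% and 60.2% of the carrier counts after OGD and 46.8% and 59.2% in control. Without Slc41a2 these shares were 38.5% and 45.3% after OGD and 45.2% and 46% in control, against 75.1% to 75.8% over all AceView-named transcripts in the 4 libraries. Median transcript length was 559.5 bases, in a range of 223 to 2012. Transcripts of 10 carrier loci overlapped those of other listed loci. Whether counting used strand is not known from the labels or headers, so reads of overlapping genes on opposite strands cannot be told apart.

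All 63 loci are listed in every library, but 31 had too few reads to be tested. Among those 31, no library passed 22 counts, 14 never passed 3 counts, and Slc24a4 and Slc5a11 stood at 0 in all 4 libraries, where 3 counts would be 1.09 to 1.25 CPM (the count divided by the product of the library's total at the tested loci and its TMM factor). The other 32 carrier loci were tested with edgeR's quasi-likelihood test among 9581 loci, with p-values adjusted over all of them.

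No carrier locus passed the adjusted threshold of 0.05 after OGD. The count was 0 of 32 in edgeR and 0 of 32 in DESeq2, with 0 of 32 at an unadjusted p under 0.05 in either tool. The background was low as well: 8 of the 9581 loci passed in edgeR (0.0835%), 4 higher (0.0417%) and 4 lower (0.0417%), and 2.33% had an unadjusted p under 0.05. Read against 0.0835%, 0 of 32 is near the background. The log2 fold changes of the 32, OGD over control, ran from -1.34 to 1.15 with a median of 0.07, against a median of 0.00 over all tested loci. They were above 0 at 20 of 32 (62.5%), against 49.7% of all. OGD and control did not overlap at 10 of 32 (31.2%), against 28% of all tested loci, with 7 carrier loci higher (21.9%, against 14%) and 3 lower (9.38%, against 14%).

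A p that misses the threshold does not show that values were alike, so the intervals matter. The approximate 95% interval of the difference reached 0.98 to either side on the log2 scale at the median carrier locus, or 1.98-fold, against 0.93 over all loci. It lay within 2-fold both ways at 8 of 32 loci (25%, against 35.7% of all). These 8 were Slc35a2, Slc35b4, Slc35c2, Slc37a3, Slc38a9, Slc39a13, Slc3a2 and Slc6a6. For them a change of 2-fold or more was outside the interval, and for the other 24 it was not.

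**Figure D1:**
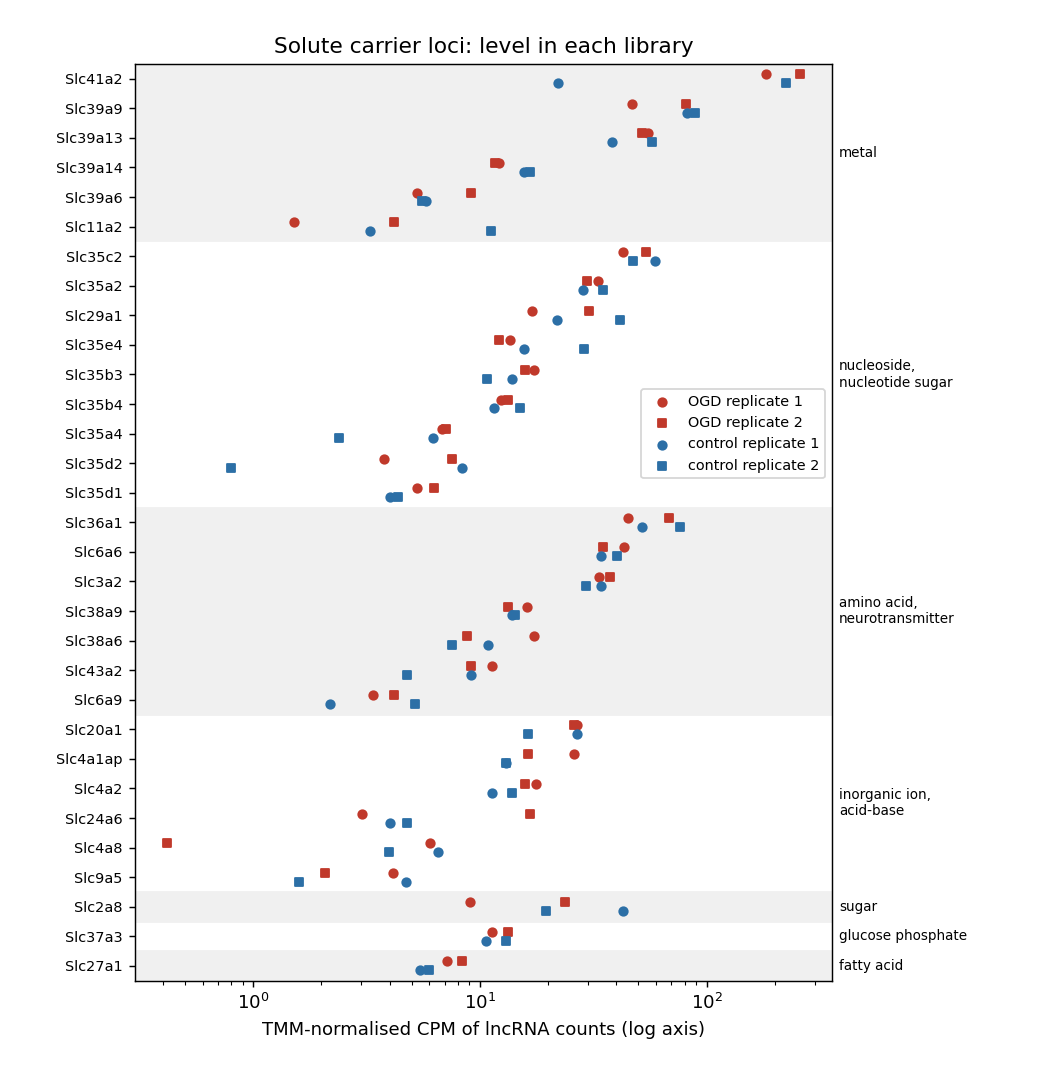
TMM-normalised CPM of lncRNA counts (log axis) at 31 of the 32 tested carrier loci, grouped by what the carriers move, with 2 OGD libraries (red) and 2 control libraries (blue) as points. The colours mix at most loci, and Slc41a2 has 1 control library at 22.2 CPM, far from its other 3 values of 182 to 259 CPM.

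The metal carriers held the most counts of any class, through 1 locus, Slc41a2. Without it they had 327 and 383 counts after OGD and 408 and 453 in control, below the amino acid carriers with 516 and 444 after OGD and 463 and 466 in control. The magnesium transporter locus Slc41a2 (chromosome 7, 26580777 to 26608147 as the tables give it) had 483 and 621 counts after OGD, and 61 and 561 in control. In CPM that is 182 and 259 after OGD against 22.2 and 224 in control, so control replicate 1 stood apart and the other 3 libraries were close to one another. Nearly all of it was 1 unspliced transcript of 2012 bases, NONRATT025685.2 (26606136 to 26608147), with 475 and 617 counts after OGD and 56 and 555 in control. The 2 other transcripts of the locus had at most 5 counts in a library. At neighbouring loci, Aldh1l2 had 32 and 36 counts after OGD and 18 and 4 in control, and jarso had 15 and 23 after OGD and 14 and 16 in control. MSTRG.28632 had 10 and 12 counts after OGD and 9 and 28 in control. Control replicate 1 was the lowest by 1 count at jarso and at MSTRG.28632, but not the lowest at Aldh1l2.

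The log2 fold change of Slc41a2 was 0.84 (SE 1.01, edgeR adjusted p = 1.00), with an interval of -1.78 to 3.47. It hung on which control was kept. Without control replicate 1 it was -0.01, and without control replicate 2 it was 3.32 (SE 0.41, edgeR adjusted p = 0.25). Control replicate 1 was at least 4-fold below each other library at 43 of the 9581 loci (0.449%), and at 1 of the 32 carrier loci, this one. The sum of all 63 loci moved with it: 862 ± 107 CPM after OGD and 781 ± 165 CPM in control (SD, n = 2 each), but 642 ± 53 CPM after OGD and 658 ± 23 CPM in control without Slc41a2.

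The zinc transporter loci of family 39 lay closer together. Slc39a9 (chromosome 6, 104291033 to 104291701), an unspliced transcript at the gene of ZIP9, had 124 and 194 counts after OGD and 225 and 222 in control. Its CPM was 46.7 and 80.9 after OGD against 81.9 and 88.5 in control, with both OGD values below both controls by a narrow gap in replicate 2. Its log2 fold change was -0.42 (SE 0.32, edgeR adjusted p = 1.00). It was -0.87 without OGD replicate 2 and -0.06 without OGD replicate 1.

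Slc39a14 (chromosome 15, 51989009 to 51995191), at the gene of ZIP14, which takes up zinc, iron and manganese, had 32 and 28 counts after OGD and 43 and 42 in control. Its replicates lay close together, at 11.9 ± 0.269 CPM after OGD and 16.2 ± 0.768 CPM in control (SD, n = 2 each). The groups did not overlap, and the log2 fold change was -0.45 (SE 0.29, edgeR adjusted p = 1.00), an interval of 0.438-fold to 1.23-fold. It lay between -0.49 and -0.39 with any 1 library left out.

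Slc39a13, at the gene of ZIP13, measured 53.5 ± 2.6 CPM after OGD and 47.8 ± 13.6 CPM in control (SD, n = 2 each), with overlapping groups. Slc39a6, at the gene of ZIP6, had 14 and 22 counts after OGD and 16 and 14 in control. The iron transporter locus Slc11a2 (chromosome 7, 142025815 to 142034652) had 4 and 10 counts after OGD and 9 and 28 in control. Its log2 fold change of -1.34 (SE 0.83, edgeR adjusted p = 1.00) was the lowest of the 32, and its groups overlapped. The interval ran from 0.0885-fold to 1.77-fold. The log2 fold change was -0.21 without control replicate 2 and -0.76 without OGD replicate 1, but -1.97 without control replicate 1 and -2.22 without OGD replicate 2.

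**Figure D2:**
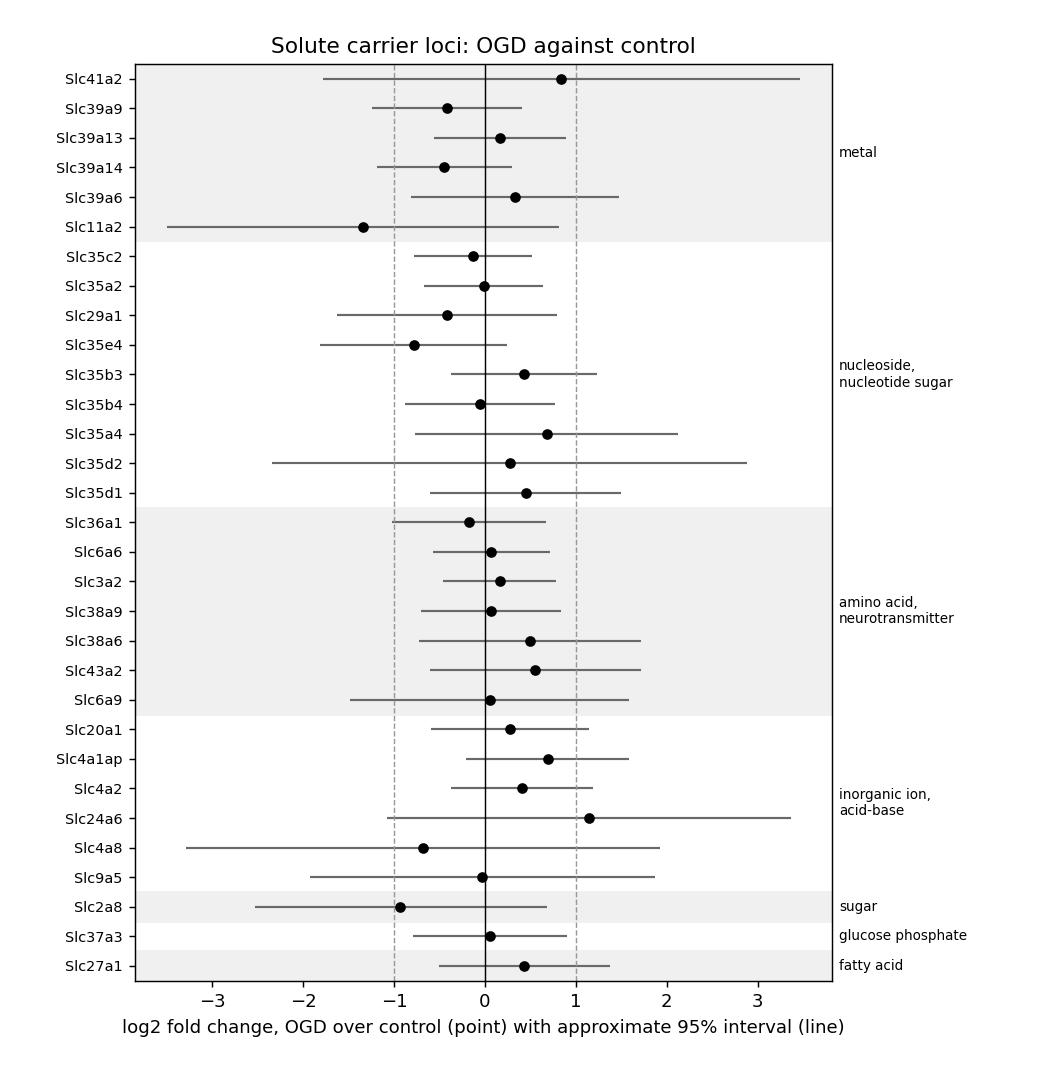
Log2 fold change (OGD over control) of 31 of the 32 tested carrier loci as points, with approximate 95% intervals as lines, in the same groups; dashed lines mark 2-fold. Every interval spans 0, and the widest belong to Slc41a2, Slc35d2, Slc4a8, Slc24a6 and Slc11a2.

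All 9 listed loci of nucleoside and nucleotide sugar carriers could be tested, and 0 passed. Their log2 fold changes ran from -0.78 to 0.68, with 4 above 0 and 5 below. Slc35e4 (chromosome 14, 84163971 to 84170906), whose substrate is not settled, had the smallest unadjusted p of the carrier loci together with Slc4a1ap, 0.106. It had 36 and 29 counts after OGD, and 43 and 72 in control. In CPM that is 13.6 and 12.1 after OGD and 15.6 and 28.7 in control, both OGD values below both controls.

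The difference at Slc35e4 was -0.78 on the log2 scale (SE 0.39, edgeR adjusted p = 1.00). Control replicate 2 carried much of it: without that library it was -0.28, and without control replicate 1 it was -1.15. Its transcript NONRATT010091.2 had 26 and 22 counts after OGD and 37 and 41 in control, without overlap, and a log2 fold change of -0.65 (SE 0.30, edgeR adjusted p = 1.00) on its own. The other, NONRATT010092.2, had 10 and 7 counts after OGD and 6 and 31 in control. NONRATT010092.2 overlaps the locus plawko, which had 27 and 18 counts after OGD and 31 and 10 in control.

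Slc35c2, at the gene of a Golgi protein linked to fucose transport, had 114 and 130 counts after OGD and 162 and 119 in control, a log2 fold change of -0.13 (SE 0.25). The UDP-galactose transporter locus Slc35a2 had 88 and 71 counts after OGD and 78 and 88 in control. Its log2 fold change was -0.01, with an interval of 0.628-fold to 1.56-fold. Slc35b4, at the gene of a UDP-xylose and UDP-N-acetylglucosamine transporter, measured 12.9 ± 0.644 CPM after OGD and 13.4 ± 2.47 CPM in control (SD, n = 2 each). These 3 loci overlapped between groups.

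Slc35b3, at the gene of a transporter of the sulfate donor PAPS, had 46 and 38 counts after OGD and 38 and 27 in control, with a log2 fold change of 0.43 (SE 0.31, edgeR adjusted p = 1.00). One of its 3 transcripts, NONRATT012393.2, was at 0 counts in 3 libraries and at 13 in OGD replicate 2. The transcript with the most counts, NONRATT012396.2, had 43 and 20 after OGD and 30 and 24 in control, so its groups overlapped. No fit of the summed locus left NONRATT012393.2 out. Both Slc35a4 and Slc35d1 were higher after OGD without overlap in CPM, on low counts. Slc35d1 had 14 and 15 counts after OGD and 11 and 11 in control. Slc35a4 had 18 and 17 after OGD and 17 and 6 in control. Its CPM was 6.78 and 7.09 after OGD and 6.19 and 2.39 in control, a narrow gap to control replicate 1. Slc35d2 had 10 and 18 counts after OGD and 23 and 2 in control, a control pair far more spread than the groups were apart.

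Slc29a1 (chromosome 9, 17787681 to 17799008) summed to 45 and 73 counts after OGD and 60 and 104 in control. Of its 6 transcripts, NONRATT029222.2 had 2 and 0 counts after OGD and 1 and 56 in control. The other 5 summed to 43 and 73 after OGD and 59 and 48 in control. Leaving that transcript out, chosen after seeing its counts, gave a log2 fold change of 0.20, against -0.42 (SE 0.46, edgeR adjusted p = 1.00) with it. The direction of Slc29a1 rested on 1 transcript in 1 control library.

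Amino acid and neurotransmitter carriers had 16 listed loci, of which 7 were tested and 0 passed. Their log2 fold changes ran from -0.18 to 0.55, and 6 of 7 were above 0, against 49.7% of all tested loci. Slc6a9, Slc6a6 and Slc38a9 were above it by no more than 0.07. Slc36a1 (chromosome 10, 40574556 to 40576326), whose upstream window carries the CACGTG pair, had the most counts of this class, without regard to transcript length. These were 120 and 163 after OGD and 142 and 191 in control. The log2 fold change was -0.18 (SE 0.32, edgeR adjusted p = 1.00), and it was at 0.14 and 0.10 without control replicate 2 and without OGD replicate 1.

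The taurine transporter locus Slc6a6 measured 43.3 and 35 CPM after OGD and 34.2 and 40.2 CPM in control. Slc3a2 (chromosome 1, 224908091 to 224909504) had 89 and 90 counts after OGD and 94 and 74 in control. Both overlapped between groups. The difference at Slc3a2 was 0.16 on the log2 scale (SE 0.24, edgeR adjusted p = 1.00), an interval of 0.725-fold to 1.71-fold.

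Slc38a9, at the gene of a lysosomal arginine sensor that acts on mTORC1, measured 14.8 ± 2.02 CPM after OGD and 14.1 ± 0.364 CPM in control (SD, n = 2 each). Slc38a6 had 46 and 21 counts after OGD and 30 and 19 in control. Slc43a2, at the gene of the large neutral amino acid transporter LAT4, had 30 and 22 counts after OGD and 25 and 12 in control, a log2 fold change of 0.55 (SE 0.45, edgeR adjusted p = 1.00). It was 0.18 without control replicate 2 and 1.1 without control replicate 1. The glycine transporter locus Slc6a9 had 9 and 10 counts after OGD and 6 and 13 in control, and its sign changed with 2 of the 4 libraries left out.

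Most of the best-known carrier genes had no listed locus, and most of the loci they had were too low to test. A list of 28 genes known in astrocytes, neurons or energy deprivation had 8 listed loci. Of these, 3 (Slc3a2, Slc6a9 and Slc39a14) were tested, against 32 of all 63 carrier loci. Slc1a2, at the gene of the main astrocyte glutamate transporter, had 4 and 2 counts after OGD and 4 and 3 in control. Slc7a11, at the gene of the cystine and glutamate exchanger, had 2 and 1 after OGD and 1 and 2 in control. The lactate carrier loci Slc16a3 and Slc16a7 had 4 and 5 and then 1 and 1 counts after OGD, and 8 and 1 and then 2 and 1 in control. Slc38a1, at the gene of a glutamine transporter, had 5 and 3 counts after OGD and 13 and 5 in control. These 5 loci were not tested, and so few counts say little of a difference either way. The excluded Slc1a3 locus had 11 and 6 counts after OGD and 10 and 9 in control.

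Of the 15 loci classed by family number with inorganic ion and acid-base carriers, 7 were tested and 0 passed. The adaptor gene Slc4a1ap is among them by its name alone. Slc4a1ap (chromosome 6, 26214078 to 26221203) had 69 and 39 counts after OGD and 36 and 33 in control. In CPM the OGD values were 26 and 16.3 and both controls were 13.1. The groups did not overlap, and the log2 fold change was 0.69 (SE 0.35, edgeR adjusted p = 1.00), with an interval of 0.863-fold to 3-fold. Much of it came from OGD replicate 1: it was 0.32 without that library and 0.98 without OGD replicate 2. Its transcript NONRATT024853.2 held 92.1% of the counts. AceView does not call that transcript unspliced, but its length of 868 bases equals its span on the chromosome.

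Slc4a2, at the gene of the chloride and bicarbonate exchanger AE2, had 47 and 38 counts after OGD and 31 and 35 in control, without overlap. Its log2 fold change was 0.41 (SE 0.30, edgeR adjusted p = 1.00). The phosphate transporter locus Slc20a1 measured 26.3 ± 0.633 CPM after OGD and 21.6 ± 7.49 CPM in control (SD, n = 2 each), and control replicate 1, at 26.9 CPM, lay just above both OGD values.

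The mitochondrial sodium and calcium exchanger locus Slc24a6 (chromosome 12, 41566982 to 41568370) had the highest log2 fold change of the 32, at 1.15 (SE 0.85, edgeR adjusted p = 1.00). That value was set by 1 library. It had 8 and 40 counts after OGD and 11 and 12 in control, and the difference was -0.54 without OGD replicate 2. Slc4a8, at the gene of a sodium-driven bicarbonate exchanger, had 16 and 1 counts after OGD and 18 and 10 in control, and Slc9a5 had 11 and 5 after OGD and 13 and 4 in control.

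**Figure D3:**
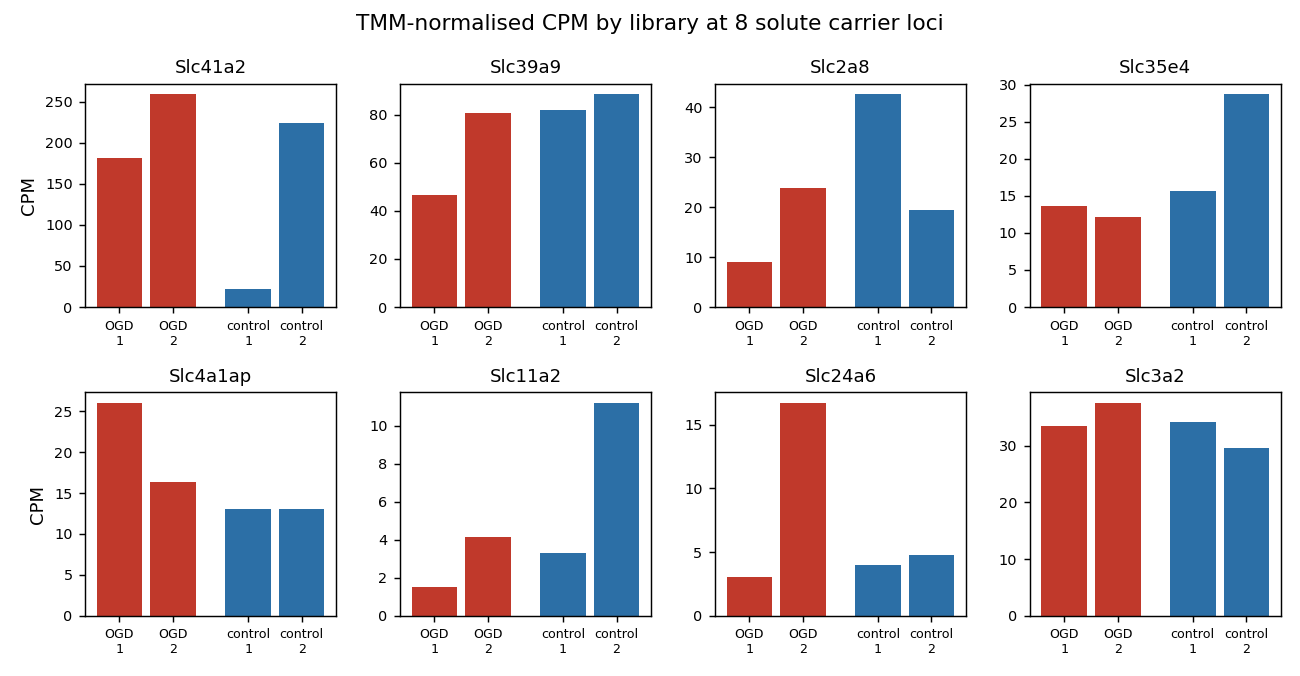
TMM-normalised CPM in each library at 8 carrier loci, with OGD bars in red left of control bars in blue, 1 bar per library and an axis from 0 in each panel. Slc41a2 is low in control replicate 1 alone, Slc24a6 is high in OGD replicate 2 alone, and Slc3a2 lies between 29.5 and 37.5 CPM in all 4.

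Sugar and monocarboxylate carriers had 8 listed loci and 1 tested, Slc2a8 (chromosome 3, 12020229 to 12022039), at the gene of the intracellular glucose transporter GLUT8. It had 24 and 57 counts after OGD and 117 and 49 in control. In CPM this was 9.04 and 23.8 after OGD and 42.6 and 19.5 in control, so the groups overlapped. The log2 fold change was -0.93 (SE 0.62, edgeR adjusted p = 1.00). It was -0.25 without control replicate 1 and -1.77 without OGD replicate 2, within an interval of 0.173-fold to 1.6-fold.

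Slc37a3, of the family of sugar phosphate carriers, had 30 and 32 counts after OGD and 29 and 33 in control. The fatty acid transport protein locus Slc27a1 had 19 and 20 counts after OGD and 15 and 15 in control, without overlap, and a log2 fold change of 0.43 (SE 0.36, edgeR adjusted p = 1.00). The 4 loci of organic ion and vitamin carriers (Slc22a18, Slc23a3, Slc44a2 and Slc46a3) summed to 6 and 8 counts after OGD and 6 and 14 in control. Among other untested loci, Slc26a2 had 0 and 0 after OGD and 15 and 0 in control, and Slc6a2, at the gene of the noradrenaline transporter, had 22 and 4 after OGD and 3 and 0 in control. Slc7a6, at the gene of an amino acid exchanger, had counts in every library, 21 and 9 after OGD and 7 and 7 in control.

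Levels can be set side by side only per length. On the authors' FPKM scale, which divides by transcript length, the Slc39a9 transcript was the highest of the 92 by the mean over all 4 libraries (11.3 FPKM), at 9.51 ± 2.94 FPKM after OGD and 13 ± 0.634 FPKM in control (SD, n = 2 each). The main Slc41a2 transcript had a mean of 8.33 FPKM, at 10.9 ± 1.97 FPKM after OGD and 5.79 ± 6.61 FPKM in control (SD, n = 2 each). It was above Slc39a9 in both OGD libraries and below it in both control libraries. Slc39a13 had 6.32 ± 0.774 FPKM after OGD and 5.63 ± 1.03 FPKM in control, and Slc35a2 5.65 ± 0.868 and 5.74 ± 0.265 FPKM in OGD and control. The order of these 4 did not exceed the spread between replicates throughout: Slc41a2 spanned 1.12 to 12.3 FPKM over the 4 libraries and so crossed all 3 others.

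Differences between groups can be read against the spread within groups. Over the tested carrier loci, the median size of the log2 ratio between the 2 libraries was 0.29 after OGD and 0.36 in control. Between the groups, the median size of the log2 fold change was 0.41. A ratio of single libraries and a difference between groups are unlike measures, and the second varies less. Over all tested loci the medians were 0.36, 0.39 and 0.22, on a median level of 19.2 CPM against 14.2 CPM for the carrier loci. The difference between groups was larger than both differences within groups at 6 of 32 loci (18.8%), near the 19% of all tested loci. These were Slc39a14, Slc35b3, Slc35d1, Slc4a1ap, Slc4a2 and Slc27a1. At Slc35b3 this drew on the 13 counts of NONRATT012393.2 in OGD replicate 2.

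**Figure D4:**
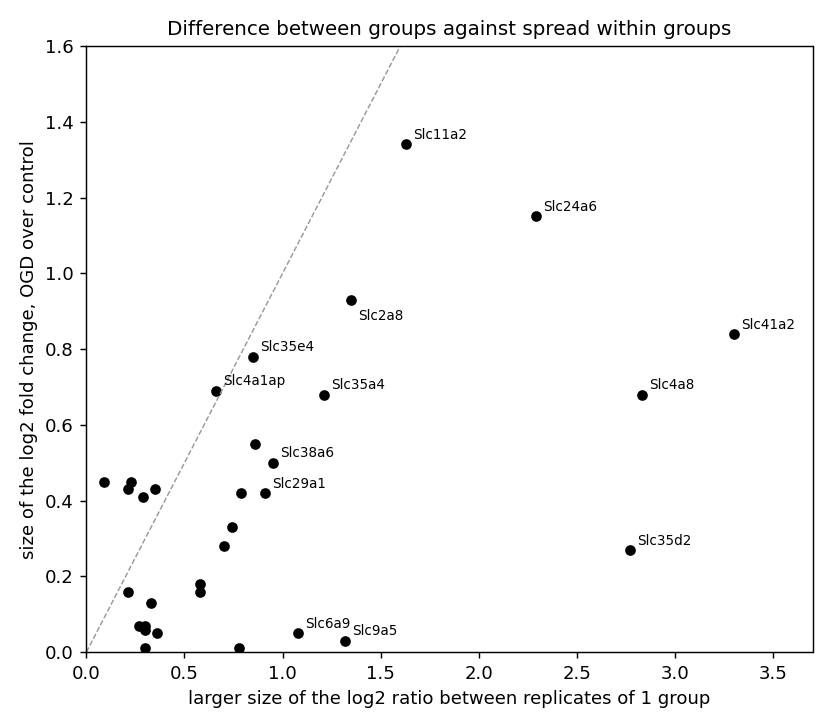
Size of the log2 fold change (OGD over control) against the larger of the 2 log2 ratios between replicates of a group (CPM plus 0.5), 1 point for each of the 32 tested carrier loci; on the dashed line both are equal. The 6 loci above the line differ by 0.69 or less, and Slc41a2, Slc4a8, Slc35d2 and Slc24a6 lie far to the right.

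None of the genes that work beside the carriers passed either. Of a list of 31 such genes, 11 had a listed locus and 9 were tested, with 0 past the threshold in edgeR and 0 at an unadjusted p under 0.05. The locus at Slco3a1, an organic anion transporter outside the numbered families, had 23 and 18 counts after OGD and 16 and 6 in control (log2 fold change 0.96, SE 0.53). Pfkfb3, which promotes glycolysis, measured 171 ± 16 CPM after OGD and 141 ± 46.4 CPM in control (SD, n = 2 each). At Atp1b3, a sodium pump subunit gene, the values were 66.4 ± 7 CPM after OGD and 71.5 ± 9.95 CPM in control (SD, n = 2 each).

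Only some of the marker names of each cell type were listed, those of the labelled type among them. Of 11 astrocyte marker names 5 were listed, and their loci summed to 64.4 and 33.8 CPM after OGD and 51 and 34.3 CPM in control, mostly at Gfap. Gfap had 139 and 51 counts after OGD and 100 and 61 in control, and Glul was at 0 in 3 libraries. Loci of 4 of 12 neuron marker names summed to 108 and 113 CPM after OGD and 83.3 and 112 CPM in control, mostly at Gria2. Within them Syn1, a synaptic vesicle gene, had 98 and 45 counts after OGD and 2 and 1 in control (log2 fold change 5.5, edgeR adjusted p = 0.185). The other listed neuron loci did not share this: Gria2 had 187 and 222 counts after OGD and 223 and 275 in control. Syt1 had 1 and 1 after OGD and 2 and 4 in control, and Gad2 had 1 and 2 after OGD and 2 and 0 in control. Loci of 2 of 6 fibroblast names summed to 184 and 325 CPM after OGD and 160 and 344 CPM in control. The sums were 10.9 and 35.9 CPM after OGD and 28.4 and 43.4 CPM in control for microglia (3 of 7 names), and 7.91 and 10.0 CPM after OGD and 8.01 and 17.1 CPM in control for the oligodendrocyte lineage (3 of 9). Endothelial and mural names (3 of 7) stood, mainly at Abcc9, at 32.4 and 25.4 CPM after OGD against 4.37 and 8.37 CPM in control. The rest of that list did not share the difference. Tek had 1 and 1 counts after OGD and 2 and 2 in control, and Pecam1 had 0 and 6 after OGD and 4 and 2 in control. What part such cells had in the carrier values was not tested.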

How the data were processed

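RNA of 4 astrocyte libraries was sequenced, and the authors deposited 1 table per library with the same 20524 lncRNA transcripts. Per the file headers these hold whole-number read counts and FPKM values side by side. HISAT2 and StringTie appear in the submitters' processing notes; which program counted reads, and whether by strand, is not given in the sources used. The notes name the mouse build mm9, yet the tables list 20 autosomes and reach position 282490960 on chromosome 1, so coordinates of loci are printed as deposited, with no build. The deposited FPKM imply 1 total per library, 24934040 to 26371055, of which lncRNA counts were 9.98% to 10.6%.

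Counts of rows with 1 name on 1 chromosome were summed and tested with edgeR 4.0.16 in R 4.3.3 (filterByExpr, TMM, quasi-likelihood F test on group alone, Benjamini-Hochberg adjustment over 9581 loci). The SE is the log2 fold change divided by the root of F, and intervals use its t quantile, so both are approximate. An exact permutation test of 2 against 2 libraries cannot go below p = 0.333 and was not used. The scripts were first tested on simulated data. DESeq2 1.42.0, other scalings, filters and thresholds, unsummed transcripts, a block for the replicate number, and fits leaving out 1 library were tried. Figures used matplotlib 3.10.9.

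The members, gene lists and classes were chosen with earlier results of these data known. The loci described in most detail are the 15 tested ones with the highest mean CPM and the listed loci among 28 well-known carriers. They also include the 8 per direction with the smallest unadjusted p and a mean of at least 20 counts in a group. None met a further rule for loci present in 1 group only, and the rest were named after their values were seen. Some single loci are not reported here, though counts over loci include them.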

Additional observations from a re-analysis of the deposited data

How the results depend on the processing

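The count of 0 carrier loci past the threshold held under every alternative run, including DESeq2, no filter on low counts (61 carrier loci tested), a rule of 2-fold with an unadjusted p below 0.05, and each library left out. Over all loci the count of 8 became 38 with DESeq2, 0 without a filter (403 at an unadjusted p under 0.05), 1 with transcripts as deposited and 159 by the rule of 2-fold with an unadjusted p below 0.05. Leaving out each library gave 0 to 12, where the lone library is assumed to vary like the other group. For these counts the cause was not tested. With the replicate number as a block, 21 of all loci and 0 carrier loci passed; no label ties the number to a culture or a day, and the deviations of equally numbered libraries correlated at 0.3 across all tested loci. Under the block the log2 fold change of Slc41a2 was 1.56 (edgeR adjusted p = 0.873), against 0.84 without it. The median of the carrier loci stayed between 0.04 and 0.15.

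Of 230 values of named loci under alternatives, 211 kept their direction and 19 changed sign. The sign changed at 18 of 84 values with a library left out and at 1 of 146 under the other alternatives. With 1 library left out, log2 fold changes lay between -0.03 and 0.69 for Slc20a1, -0.54 and 1.93 for Slc24a6, -0.9 and 0.12 for Slc29a1, -0.15 and 0.15 for Slc35a2, -0.23 and 0.15 for Slc35b4, -0.31 and 0.04 for Slc35c2, -0.5 and 0.14 for Slc36a1, -0.07 and 0.9 for Slc38a6, -0.09 and 0.49 for Slc39a13, -0.01 and 3.32 for Slc41a2, -0.07 and 0.22 for Slc6a6, and -0.45 and 0.78 for Slc6a9. Among loci that kept their sign, the range was 0.06 to 0.27 for Slc3a2, 0.27 to 0.63 for Slc35b3 and 0.27 to 0.58 for Slc4a2. The sums of Slc35b3 included NONRATT012393.2, which had counts in OGD replicate 2 alone. Slc11a2 was at -1.3 (SE 0.46, edgeR adjusted p = 0.873, unadjusted p = 0.0388) under the replicate block. It was the only carrier locus at an unadjusted p under 0.05 in that fit, beside 441 of all 9581 loci. The rule of 2-fold was not applied to that fit. Slc29a1 was at 0.2 without NONRATT029222.2, an alternative chosen after seeing the data. Depth limits the carrier loci: 31 of 63 could not be tested, and the interval of the median tested one reached 1.98-fold either way.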
